A study of Mus musculus with 12 samples.

Results

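The breakdown of branched-chain amino acids and of propionate was followed in mouse kidney through 10 genes that encode mitochondrial enzymes: Bcat2, Bckdha, Bckdhb, Dbt, Ivd, Mccc1, Mccc2, Hibch, Pcca and Pccb. They were chosen by name for their place in the pathway, with earlier results of these data known. They were found by NCBI Gene number in the RefSeq gene table of the mouse build GRCm38.p6, and all 10 were among the 27179 genes of the expression table. All 10 also passed the filter on low values, a level of at least 1 TPM (transcripts per 1000000, which scales reads by gene length and library total) in at least 3 libraries, as did 14972 genes in all.

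FAN1 is a nuclease that takes part in the repair of DNA crosslinks, and cisplatin is a drug that makes such crosslinks and injures kidney tubules. RNA of kidneys from 12 mice, 3 in each of 4 groups, was sequenced. FAN1KO mice carried the genotype γGT1-Cre;Fan1-/-, in which a Ggt1-driven Cre deletes Fan1 in the proximal tubule, so other kidney cells retain the gene and the RNA of the organ mixes both. WT mice were labelled Wildtype, and whether they carried the Cre was not given in the sources used here. Mice of each genotype received either cisplatin at 2 mg/kg, injected intraperitoneally once a week for 5 weeks, or saline. All 4 groups were labelled as 8 to 12 weeks old and of a Mixed strain background. The paper's methods instead describe FAN1KO mice backcrossed over at least 5 generations to a named strain. They give 8 to 12 weeks as the age of the mice that were injected. Below, the values of a group are given in the order of its replicates 1, 2 and 3, which are different mice.

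Fan1 itself, the gene deleted, was at 3.80, 3.35 and 1.98 TPM in WT saline, 1.17, 1.54 and 2.28 in FAN1KO saline, 2.33, 3.57 and 3.32 in WT cisplatin and 2.72, 3.51 and 1.55 in FAN1KO cisplatin kidneys. The genotypes overlapped under both treatments, and a total over the gene does not show which of its exons were lost. Whole read numbers recovered from the steps of the TPM scale gave 56.9, 41.9 and 82.9 M reads in WT saline, 50.1, 42.4 and 44.0 M in FAN1KO saline, 58.0, 39.8 and 37.2 M in WT cisplatin and 39.1, 40.2 and 39.0 M in FAN1KO cisplatin libraries. The 10 genes had between 1131 reads (Bckdhb in FAN1KO cisplatin replicate 1) and 51507 reads (Pccb in WT saline replicate 3), so none of them was near the limit of detection in any library.

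Genes that define kidney segments were present in every library: Slc34a1 of the proximal tubule ranged from 837 to 3689 TPM, Umod of the thick ascending limb from 921 to 2444, and Aqp2 of the collecting duct from 141 to 1292. Of 4 Y-linked genes listed, all 4 were found, with Eif2s3y the most abundant. Their summed level was 65.1 TPM in WT saline replicate 3, 76.0 in FAN1KO saline replicate 1, 75.5 in WT cisplatin replicate 1 and 92.2 in FAN1KO cisplatin replicate 3, and at most 0.311 in the other 8 libraries. Each group therefore held 1 library with Y-linked RNA. The Y-linked list had 0 genes called in any of the 5 comparisons by limma, and 0 at an unadjusted p under 0.05. With 1 such library in every group, this count follows from the layout and says nothing on differences tied to Y-linked RNA.

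Leucine, isoleucine and valine are first transaminated to branched-chain keto acids, which the branched-chain keto acid dehydrogenase complex (BCKDH) then decarboxylates in the mitochondrial matrix. The leucine arm goes on to acetyl-CoA and acetoacetate, while valine and part of isoleucine reach propionyl-CoA, which a biotin-dependent carboxylase turns toward succinyl-CoA and the citric acid cycle. Kidney is among the organs in which BCKDH is active, and inherited loss of these enzymes causes maple syrup urine disease and several organic acidurias in people.

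Summed over the 10 genes, the level was 1598, 1757 and 1671 TPM in WT saline, 1599, 1746 and 1567 in FAN1KO saline, 1549, 1516 and 1616 in WT cisplatin and 984, 1042 and 1151 in FAN1KO cisplatin kidneys. The 3 FAN1KO cisplatin kidneys lay below the 9 others, and those 9 overlapped across their groups. Pccb was the most abundant of the 10 in 11 libraries and Ivd in FAN1KO saline replicate 1. In bulk tissue, fewer cells of a type and less RNA per cell cannot be told apart, and TPM are shares of all RNA in a library.

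**Figure D1:**
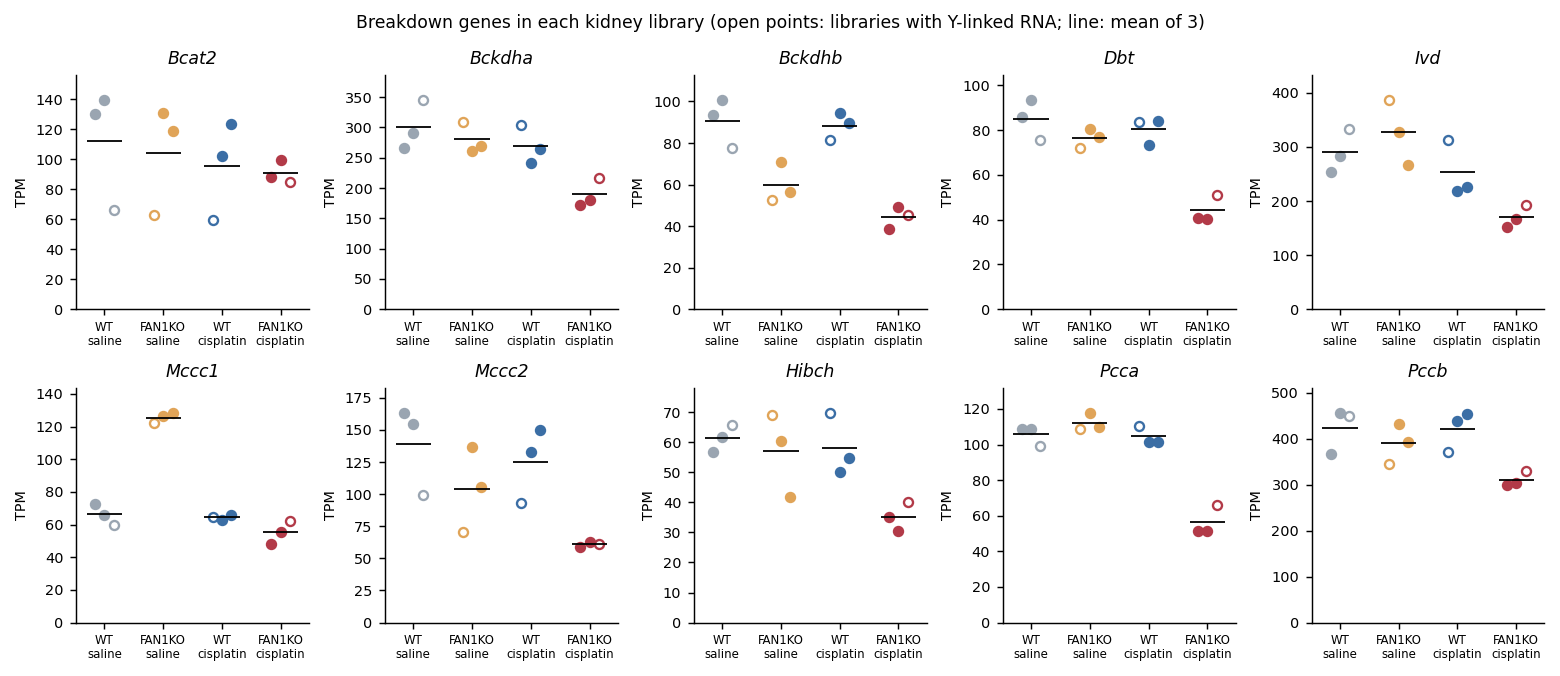
TPM of each of the 10 genes in the 12 kidneys (points, 3 mice per group, open where Y-linked RNA was present; lines, group mean). Bckdhb, Dbt, Mccc2 and Pcca lie lower in the 3 FAN1KO cisplatin kidneys than in the 3 WT cisplatin kidneys, and Mccc1 stands higher in the 3 FAN1KO saline kidneys, at 122, 126 and 128 TPM.

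Under cisplatin, 9 of the 10 genes, all but Bcat2, had every FAN1KO kidney below every WT kidney; 8.60% of all genes tested did so. With limma on log2(TPM + 1), 8 of the 10 were called lower in FAN1KO at an adjusted p under 0.05, against 4.37% of all genes, and 0 of the 10 were called higher, against 19.6% of all genes. The called genes were Bckdha, Bckdhb, Dbt, Ivd, Mccc2, Hibch, Pcca and Pccb. All 10 estimates were below 0, as were those of 27.4% of all genes, and their median log2 fold change was -0.63 against 0.24 over all genes tested.

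That count depended on single libraries. Without FAN1KO cisplatin replicate 1 or replicate 2, 3 of the 10 genes were called in either case, without WT cisplatin replicate 3, 4 were, and without WT cisplatin replicate 1, 5 were; the count of all genes called lower was 370, 402, 511 and 453 in those fits against 654 in full. Fitted on the 6 cisplatin libraries alone, 5 of the 10 were called, with Bckdha (adjusted p = 0.058), Ivd (0.0724) and Pccb (0.0589) lost. Among all genes that fit called 454 lower and 1721 higher. With a Y-linked covariate in limma each called gene kept its call, with adjusted p from 9.97e-05 for Pcca to 0.0140 for Pccb. Mccc1 (0.0892) and Bcat2 (0.953) stayed uncalled. Calls over all genes rose too with the covariate, to 1288 lower and 6035 higher. Median-ratio scaling moved the median of all genes from 0.24 to -0.01 and the split of all calls from 654 lower and 2931 higher to 1155 lower and 1389 higher; the median of the 10 genes then was -0.91, and 6 were called.

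**Figure D2:**
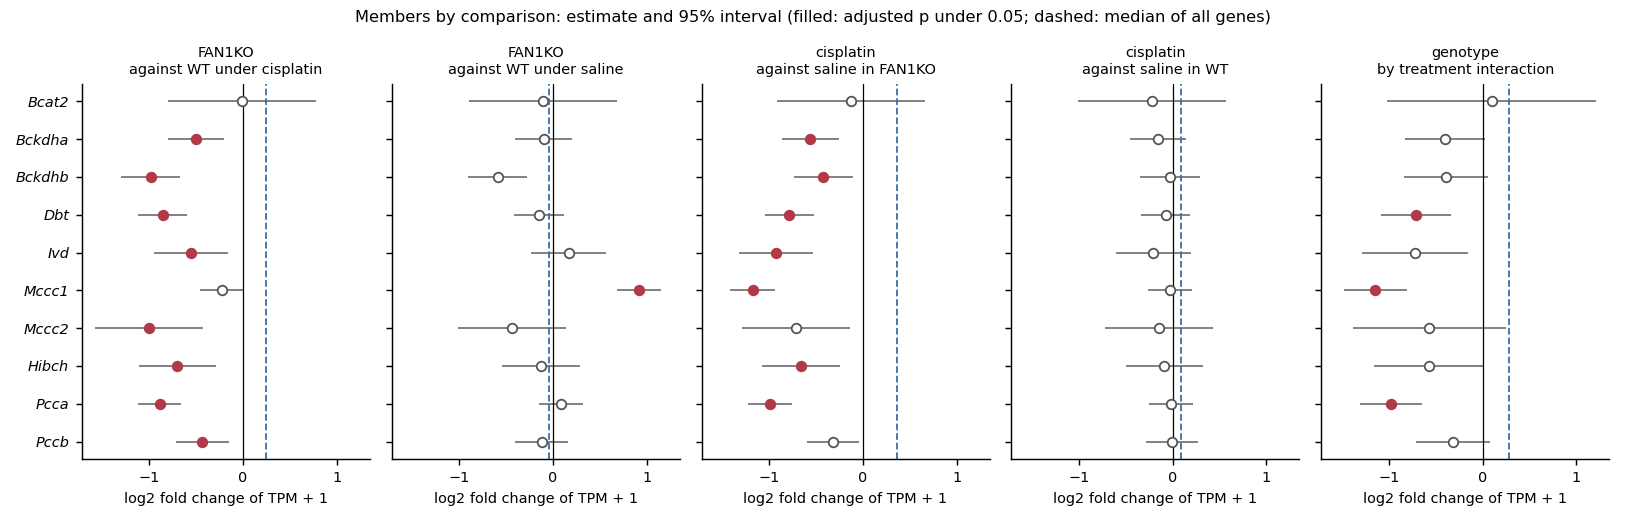
Log2 fold changes of the 10 genes on the log2(TPM + 1) scale in the 4 pairwise comparisons and the interaction, with 95% confidence intervals from limma (filled points, adjusted p under 0.05; dashed lines, median of all genes). Estimates for FAN1KO against WT under cisplatin run from that of Mccc2, the lowest, to -0.01 for Bcat2, and those for cisplatin against saline in WT from -0.22 to -0.01.

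Bcat2 (NCBI Gene 12036, chr7:45568967-45589710) encodes the mitochondrial aminotransferase that starts the pathway. It was at 130.3, 139.8 and 66.3 TPM in WT saline, 62.6, 131 and 119 in FAN1KO saline, 59.4, 102 and 124 in WT cisplatin and 88.0, 99.7 and 84.7 in FAN1KO cisplatin kidneys. In all 4 groups its lowest kidney was the one with Y-linked RNA, and the groups overlapped in every comparison. FAN1KO against WT under cisplatin gave a log2 fold change of -0.01 (95% confidence interval -0.80 to 0.78, adjusted p = 0.992), an interval that does not show that the levels did not differ. The sign of this estimate turned without WT cisplatin replicate 2 (0.076) or 3 (0.21) and without FAN1KO cisplatin replicate 1 (0.013) or 3 (0.040). With median-ratio scaling it was -0.29 (adjusted p = 0.463), and without the 4 libraries with Y-linked RNA -0.26 (adjusted p = 0.123). Bcat2 overlaps the long non-coding RNA gene 0610005C13Rik, at 126 to 326 TPM, and since the strand used in counting was not given, reads of the pair may be mixed.

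Bckdha (12039, chr7:25629852-25658782) and Bckdhb (12040, chr9:83925111-84124240) encode the alpha and beta chains of the E1 decarboxylase of BCKDH, and Dbt (13171, chr3:116513070-116549981) its E2 transacylase core. Bckdhb was at 93.5, 101 and 77.4 TPM in WT saline, 52.5, 70.7 and 56.6 in FAN1KO saline, 81.4, 94.2 and 89.6 in WT cisplatin and 38.7, 49.2 and 45.2 in FAN1KO cisplatin kidneys. Every FAN1KO kidney was below every WT kidney, with or without cisplatin. Bckdhb was lower in FAN1KO than in WT by 0.98 on the log2 scale among cisplatin kidneys (SE 0.14, adjusted p = 0.00153) and kept the call without any 1 library, with adjusted p up to 0.00902. The Bckdhb gene span overlaps those of Gm29163 and Gm46124, for which no level was given in the table used here.

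Dbt was at 85.9, 93.6 and 75.6 TPM in WT saline, 71.8, 80.4 and 76.9 in FAN1KO saline, 83.8, 73.3 and 84.2 in WT cisplatin and 40.9, 40.3 and 51.2 in FAN1KO cisplatin kidneys. The FAN1KO cisplatin kidneys were below the 9 others, which overlapped. Its log2 fold change against WT under cisplatin was -0.86 (SE 0.12, adjusted p = 0.00134), with adjusted p up to 0.00817 without any 1 library. Bckdha averaged 301 ± 40.9 TPM in WT saline, 280.2 ± 25.5 in FAN1KO saline, 269 ± 31.6 in WT cisplatin and 190.3 ± 23.8 in FAN1KO cisplatin kidneys (mean ± SD, n = 3 each), above Bckdhb and Dbt in every library. The 3 FAN1KO cisplatin kidneys, at 173, 181 and 217 TPM, were below the 9 others, of which WT cisplatin replicate 2 was lowest at 241. Its fold under cisplatin was smaller, -0.50 (SE 0.14, adjusted p = 0.0249), and the call was lost without WT cisplatin replicate 1 (adjusted p = 0.0918) or 3 (0.0516), without FAN1KO cisplatin replicate 1 (0.102) or 2 (0.0845), and with median-ratio scaling (0.0613). Dbt overlaps Gm4596, and Bckdha overlaps no other annotated gene.

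Promoters were read for 4 genes that were called lower together under cisplatin, those with the largest folds, Mccc2 and Bckdhb, and the smallest, Bckdha and Pccb. Of the 10 genes, 9 had promoter entries in RefSeq GRCm38.p6, 12 in all, and Dbt had none in that table. The bases shown lie upstream of the annotated gene span, 5′ to 3′ on the gene's strand: chr13:100015640-100015889 (minus) for Mccc2, chr9:83924887-83925110 (plus) for Bckdhb, chr7:25658783-25659011 (minus) for Bckdha and chr9:101034941-101035134 (minus) for Pccb. Capitals mark GGGCGG and CCAAT, or CCGCCC and ATTGG on the other strand; in the Mccc2 promoter a CCAAT and an ATTGG overlap in CCAATTGG.
Mccc2: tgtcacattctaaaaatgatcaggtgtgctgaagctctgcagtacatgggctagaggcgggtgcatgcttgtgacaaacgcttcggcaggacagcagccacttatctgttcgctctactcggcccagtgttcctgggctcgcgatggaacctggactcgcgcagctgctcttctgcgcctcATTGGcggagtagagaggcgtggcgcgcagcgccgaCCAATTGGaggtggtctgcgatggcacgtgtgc
Bckdhb: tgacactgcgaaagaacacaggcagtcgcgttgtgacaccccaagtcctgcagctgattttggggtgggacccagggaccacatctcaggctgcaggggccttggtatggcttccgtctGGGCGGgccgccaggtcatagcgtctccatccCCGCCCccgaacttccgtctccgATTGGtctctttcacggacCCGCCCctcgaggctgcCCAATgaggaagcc
Bckdha: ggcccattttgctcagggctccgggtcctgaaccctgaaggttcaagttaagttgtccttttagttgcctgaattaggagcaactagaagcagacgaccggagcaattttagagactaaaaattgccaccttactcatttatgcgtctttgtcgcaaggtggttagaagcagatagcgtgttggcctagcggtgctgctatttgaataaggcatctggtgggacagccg
Pccb: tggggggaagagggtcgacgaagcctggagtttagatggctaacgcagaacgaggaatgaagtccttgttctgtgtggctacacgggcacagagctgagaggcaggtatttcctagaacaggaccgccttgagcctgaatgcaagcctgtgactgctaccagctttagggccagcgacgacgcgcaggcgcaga

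The Mccc2 promoter held 3 CCAAT matches and the Bckdhb promoter shown 3 GGGCGG and 2 CCAAT matches, while the Bckdha bases held neither. Another Bckdhb promoter, chr9:83948531-83948780, is not shown and held 0 matches to either. Over the 250-base windows of all 32851 promoters, 33.8% held CCAAT and 32.7% GGGCGG on either strand. Counted in the same way, 6 of the 12 promoters of the 9 genes held CCAAT and 4 of the 12 GGGCGG. By gene, with a match in any of its promoters, 5 held CCAAT (Ivd, Mccc1, Bckdhb, Mccc2 and Pcca) and 4 GGGCGG (Hibch, Mccc1, Bckdhb and Pcca). AAGGTCA was in 4.08% of promoters and in 0 of the 9 genes, and GCATGCGC in 2.26% and in 1 of the 9, Pccb, inside its annotated span and so not shown. A match to these letters is a description of the sequence.

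Ivd (56357, chr2:118861959-118882909) encodes isovaleryl-CoA dehydrogenase, which acts first in the leucine arm after BCKDH. It was at 254, 283 and 332 TPM in WT saline, 387, 328 and 267 in FAN1KO saline, 313, 219 and 227 in WT cisplatin and 152, 166 and 193 in FAN1KO cisplatin kidneys. The FAN1KO cisplatin kidneys were lower than all others, with WT cisplatin replicate 2 the nearest. The log2 fold change under cisplatin was -0.55 (SE 0.18, adjusted p = 0.0467). This call was lost in 13 of the alternative fits. Among them were those without WT saline replicate 1 (adjusted p = 0.0545) or 2 (0.0644) or FAN1KO saline replicate 2 (0.062). It was also lost without WT cisplatin replicate 1 (0.164) or 3 (0.0597) or FAN1KO cisplatin replicate 1 (0.166) or 2 (0.12), and with median-ratio scaling (0.0805). With a Y-linked covariate the call held (adjusted p = 0.00101), in a fit that called 1288 lower and 6035 higher among all genes.

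Mccc1 (72039, chr3:35956292-36000694) encodes the biotin-carrying alpha subunit of methylcrotonyl-CoA carboxylase and acts after Ivd in the leucine arm. It was at 72.6, 66.1 and 60.0 TPM in WT saline, 122, 126 and 128 in FAN1KO saline, 64.6, 63.1 and 66.0 in WT cisplatin and 47.9, 55.6 and 62.4 in FAN1KO cisplatin kidneys. The 3 FAN1KO saline kidneys stood above the 9 others, and the FAN1KO cisplatin kidneys were below both WT groups except that replicate 3 was above WT saline replicate 3. Under saline, Mccc1 was higher in FAN1KO by 0.92 on the log2 scale (SE 0.11, adjusted p = 0.00308), with adjusted p from 0.00258 to 0.0197 without any 1 library. Under cisplatin the estimate was -0.23 (95% confidence interval -0.46 to 0.01, adjusted p = 0.144), and with median-ratio scaling it was -0.51 (adjusted p = 0.061).

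Mccc1 overlaps the antisense-named gene Mccc1os, which was at 0.308 TPM or less in every library. Mccc2 (78038, chr13:99948532-100015639) encodes the beta subunit of the same carboxylase, and its span overlaps no other annotated gene. It was at 163, 155 and 99.7 TPM in WT saline, 70.2, 137 and 105 in FAN1KO saline, 93.0, 133 and 150.2 in WT cisplatin and 58.5, 62.9 and 61.1 in FAN1KO cisplatin kidneys. The FAN1KO cisplatin kidneys were close to each other and below all others, while the other groups spread widely, with the Y-linked kidneys lowest in each. Mccc2 was lower in FAN1KO than in WT by 1.00 on the log2 scale among cisplatin kidneys (SE 0.26, adjusted p = 0.0208), and the call was lost without WT cisplatin replicate 2 (adjusted p = 0.0545) or 3 (0.0639) or FAN1KO cisplatin replicate 1 (0.0758) or 2 (0.0563). Its saline estimate of -0.44 (SE 0.26, adjusted p = 0.794) was opposite in sign to that of Mccc1.

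Hibch (227095, chr1:52845038-52920986) encodes 3-hydroxyisobutyryl-CoA hydrolase of the valine arm. It averaged 61.4 ± 4.63 TPM in WT saline, 57.2 ± 13.9 in FAN1KO saline, 58.2 ± 10.3 in WT cisplatin and 35.3 ± 4.81 in FAN1KO cisplatin kidneys (mean ± SD, n = 3 each). The FAN1KO cisplatin range of 30.6 to 40.2 TPM was below the other groups, whose lowest kidney was FAN1KO saline replicate 3 at 42.0. The log2 fold change under cisplatin was -0.70 (SE 0.19, adjusted p = 0.0232), a call lost without WT cisplatin replicate 1 (adjusted p = 0.0882) or FAN1KO cisplatin replicate 1 (0.0761) or 2 (0.0889). The Hibch span overlaps that of Gm16107.

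Pcca (110821, chr14:122484365-122889944) and Pccb (66904, chr9:100982032-101034940) encode the alpha and beta subunits of propionyl-CoA carboxylase. Pcca was at 109, 109 and 99.3 TPM in WT saline, 109, 118 and 110.0 in FAN1KO saline, 111, 101 and 102 in WT cisplatin and 51.4, 51.6 and 65.9 in FAN1KO cisplatin kidneys. The FAN1KO cisplatin kidneys were well below the 9 others, which lay between 99.3 and 118 TPM. Pcca was lower in FAN1KO than in WT by 0.89 on the log2 scale among cisplatin kidneys (SE 0.11, adjusted p = 0.000595), the smallest adjusted p of the 10 genes, and up to 0.00431 without any 1 library. Its span holds 4 other annotated genes, Gm9399, Gm18143, Gm46487 and Gm46489, with no level in the table used here.

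Pccb averaged 424 ± 49.5 TPM in WT saline, 390.0 ± 44.1 in FAN1KO saline, 421 ± 44.9 in WT cisplatin and 311 ± 16.5 in FAN1KO cisplatin kidneys (mean ± SD, n = 3 each), the highest mean of the 10 genes in every group. The FAN1KO cisplatin kidneys, at 299, 305 and 329.8 TPM, were below the 9 others, of which FAN1KO saline replicate 1 was lowest at 345. The log2 fold change under cisplatin was -0.43 (SE 0.13, adjusted p = 0.0329), and the call was lost without WT cisplatin replicate 2 (adjusted p = 0.083) or 3 (0.092) or FAN1KO cisplatin replicate 1 (0.112) or 2 (0.0965).

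TPM are per length, so the levels of 2 subunits of a complex can be set against each other in each library. The ratio of Mccc1 to Mccc2 was 0.445, 0.427 and 0.601 in WT saline, 1.74, 0.923 and 1.22 in FAN1KO saline, 0.694, 0.475 and 0.44 in WT cisplatin and 0.819, 0.884 and 1.02 in FAN1KO cisplatin kidneys. All 6 FAN1KO kidneys were above all 6 WT kidneys. The ratio of Pcca to Pccb was 0.299, 0.231 and 0.224 in WT cisplatin and 0.172, 0.17 and 0.2 in FAN1KO cisplatin kidneys, and from 0.221 to 0.316 in the saline groups. The ratio of Bckdha to Dbt was 3.62, 3.28 and 3.14 in WT cisplatin against 4.23, 4.48 and 4.24 in FAN1KO cisplatin kidneys. It was 3.09, 3.11 and 4.57 in WT saline and 4.31, 3.25 and 3.51 in FAN1KO saline kidneys. The ratio of Bckdha to Bckdhb was 3.73, 2.55 and 2.95 in WT cisplatin against 4.47, 3.68 and 4.81 in FAN1KO cisplatin kidneys, and here the groups overlapped. It was 2.84, 2.89 and 4.47 in WT saline and 5.89, 3.7 and 4.77 in FAN1KO saline kidneys. For both ratios the FAN1KO cisplatin values lay within the range of the saline kidneys.

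The mean log2 ratio in FAN1KO minus that in WT under cisplatin was 0.78 for Mccc1 to Mccc2, -0.47 for Pcca to Pccb, 0.37 for Bckdha to Dbt and 0.50 for Bckdha to Bckdhb. By a two-sided exact permutation test of 3 against 3 libraries, p was 0.1 for the first 3 ratios, the smallest value this test allows, and 0.2 for the last, and after adjustment over the 4 ratios 0.133 and 0.2. No ratio could therefore pass the threshold of 0.05 by this test.

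**Figure D3:**
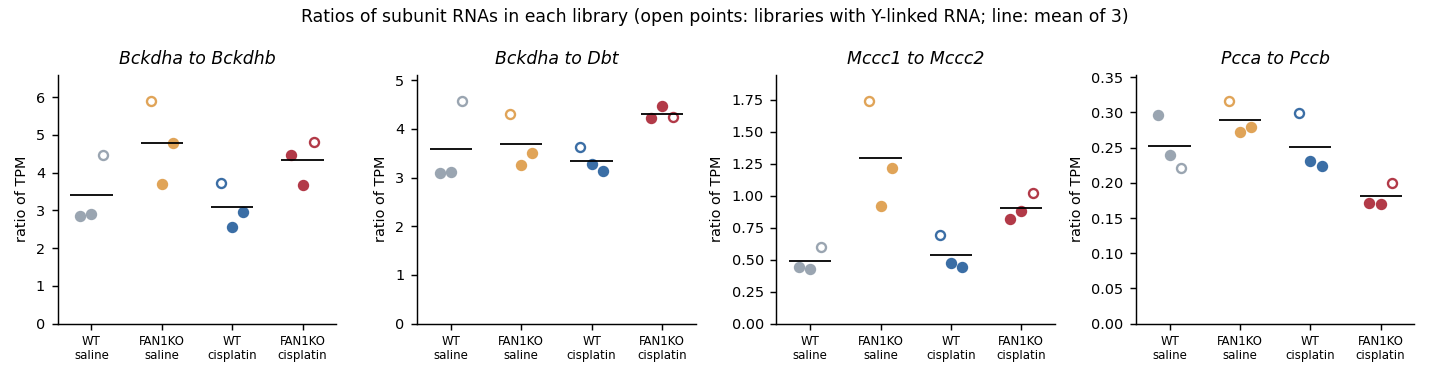
Ratio of the TPM of 2 subunits in each of the 12 kidneys for 4 subunit pairs (points, 3 mice per group, open where Y-linked RNA was present; lines, group mean). The Mccc1 to Mccc2 ratio runs from 0.427 to 0.694 in WT and from 0.819 to 1.74 in FAN1KO kidneys.

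Without cisplatin, the genotypes differed in 1 of the 10 genes by limma, Mccc1, which was called higher in FAN1KO; 0.341% of all genes were. The count of genes called lower was 0 of the 10, against 0.427% of all genes, and at an unadjusted p under 0.05 Bckdhb was lower (log2 fold change -0.59, 95% confidence interval -0.91 to -0.28, unadjusted p = 0.00176, adjusted p = 0.125), while voom on the recovered reads also called 0 lower. Groups without overlap were found for Bckdhb below, as for 7.83% of all genes, and for Mccc1 above, as for 4.62%. The median of the 10 genes was -0.11 against -0.04 for all genes tested. Median-ratio scaling moved the split of all calls from 64 lower and 51 higher to 67 lower and 80 higher, and left Mccc1 called (0.97, adjusted p = 0.0275). The Bckdhb estimate passed the threshold with a Y-linked covariate in the model (adjusted p = 0.0309).

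Within FAN1KO mice, cisplatin kidneys were compared with saline kidneys, and 7 of the 10 genes were called lower, against 4.90% of all genes, and 0 higher, against 34.9%. In 9 of the 10, all but Bcat2, every cisplatin kidney was below every saline kidney, as in 7.43% of all genes. The largest differences were those of Mccc1, which fell by 1.18 on the log2 scale (SE 0.11, adjusted p = 8.47e-05), from 122 to 128 TPM under saline to 47.9 to 62.4 under cisplatin, Pcca, which fell by 0.99 (SE 0.11, adjusted p = 0.000187), and Ivd, which fell by 0.93 (SE 0.18, adjusted p = 0.00302). Dbt (-0.78, adjusted p = 0.000944), Bckdha (-0.56, adjusted p = 0.00919), Hibch (-0.66, adjusted p = 0.0181) and Bckdhb (-0.42, adjusted p = 0.0373) were also called. The estimates of Mccc2 (-0.71, 95% confidence interval -1.29 to -0.14, adjusted p = 0.0501), Pccb (-0.32, -0.60 to -0.04, adjusted p = 0.0658) and Bcat2 (-0.13, -0.92 to 0.66, adjusted p = 0.797) missed the threshold, which does not show that their levels did not differ. Mccc2 was called without WT saline replicate 3 (adjusted p = 0.0344), FAN1KO saline replicate 1 (0.0176) or WT cisplatin replicate 1 (0.0363), and Pccb without FAN1KO saline replicate 1 (0.0484) or WT cisplatin replicate 1 (0.0491). Voom on the recovered reads called both (0.0284 for Mccc2, 0.0413 for Pccb), as did a Y-linked covariate (0.00402 and 0.041). With the covariate, calls over all genes rose from 733 lower and 5229 higher to 1222 and 7919. The Bckdhb call was lost without FAN1KO saline replicate 2 (adjusted p = 0.124) or 3 (0.0594), WT cisplatin replicate 3 (0.0506) or FAN1KO cisplatin replicate 1 (0.144) or 3 (0.06), and the Hibch call without FAN1KO saline replicate 1 (0.0729) or 2 (0.0524) or FAN1KO cisplatin replicate 1 (0.0557) or 2 (0.0707). With the compared libraries alone, Bckdhb was not called (adjusted p = 0.0672) and Mccc2 was (0.0493).

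The median of the 10 genes in that comparison was -0.69 against 0.37 for all genes. Median-ratio scaling moved the all-gene median to -0.01 and the split of all calls from 733 lower and 5229 higher to 2047 lower and 2333 higher, and with it the median of the 10 was -1.12 and 9 were called.

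In WT mice cisplatin gave no call among the 10 genes. By limma 0 of the 10 were called lower or higher, against 0 and 0.0601% of all genes, and 0 had an unadjusted p under 0.05, against 67 lower and 382 higher among all genes; voom on the recovered reads also called 0 of the 10. The estimates ran from -0.22 for Bcat2 to -0.01 for Pccb, with a median of -0.08 against 0.08 over all genes. The 95% confidence intervals still allowed differences such as -0.25 to 0.22 for Pcca, -0.60 to 0.19 for Ivd and -0.72 to 0.43 for Mccc2. The comparisons under cisplatin and within FAN1KO share the FAN1KO cisplatin libraries, and those within each treatment share controls with those within each genotype, so their counts are not independent of each other.

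The cisplatin effect was called different between genotypes, by the interaction term, in 3 of the 10 genes, all more negative in FAN1KO, against 1.02% of all genes called negative; 0 were called positive, against 5.22%. These were Mccc1 (-1.14, SE 0.15, adjusted p = 0.00584), Pcca (-0.98, SE 0.15, adjusted p = 0.0109) and Dbt (-0.71, SE 0.17, adjusted p = 0.039). For Ivd (-0.72, 95% confidence interval -1.28 to -0.16, adjusted p = 0.11), Bckdha (-0.40, -0.83 to 0.02, adjusted p = 0.225), Bckdhb (-0.39, -0.84 to 0.05, adjusted p = 0.254) and Hibch (-0.57, -1.16 to 0.01, adjusted p = 0.211) it was not, although each was called within FAN1KO and not within WT. The Mccc1 term combines a higher FAN1KO saline level with a FAN1KO cisplatin level of 47.9 to 62.4 TPM against 63.1 to 66.0 in WT, whereas for Pcca and Dbt the FAN1KO saline kidneys overlapped with the WT kidneys and the FAN1KO cisplatin kidneys were below them. The Dbt call was lost without WT saline replicate 1 (adjusted p = 0.0816), 2 (0.0552) or 3 (0.0612), FAN1KO saline replicate 1 (0.0602), 2 (0.0714) or 3 (0.0776), WT cisplatin replicate 1 (0.0794) or 3 (0.0696), or FAN1KO cisplatin replicate 1 (0.102) or 2 (0.096), and without the mean-variance trend (0.0556), while Mccc1 and Pcca were called without any 1 library.

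The median interaction of the 10 genes was -0.57 against 0.28 for all genes. Median-ratio scaling moved the split of all calls from 153 negative and 782 positive to 184 and 374 and the median of the 10 to -0.90. With a Y-linked covariate 6 of the 10 were called, and without the 4 libraries with Y-linked RNA, a fit chosen after the data were seen, 5 were. Calls rose over all genes too, to 646 negative and 4088 positive with the covariate and to 434 and 2004 without those libraries. In that last fit, FAN1KO against WT under cisplatin gave 9 calls, with Mccc1 added (-0.32, adjusted p = 0.0416), and cisplatin against saline in FAN1KO gave 10, with Bcat2 (-0.41, adjusted p = 0.0245), Mccc2 (0.00126) and Pccb (0.0166) added. Over all genes it gave 1162 lower and 4328 higher in the first and 1256 lower and 6647 higher in the second.

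The other genes of the pathway were followed in a list of 22, of which all 22 were tested. FAN1KO against WT under cisplatin gave 9 called lower, against 4.37% of all genes, and 1 higher, against 19.6%, with a median of -0.37. Every FAN1KO kidney was below every WT kidney in 13 of the 22, against 8.60% of all genes, and above in 2, against 35.7%. Median-ratio scaling gave 12 lower and a median of -0.64 against -0.01 over all genes, and a Y-linked covariate 13 lower. With the covariate, calls over all genes rose too, from 654 lower and 2931 higher to 1288 and 6035. Without FAN1KO cisplatin replicate 1 or 2, 6 of the 22 were called lower and 0 higher in either case, and 0 were called higher without WT cisplatin replicate 1 or 3. Those called in the valine arm were Hibadh (-1.09, adjusted p = 0.00035), Aldh6a1 (-1.08, adjusted p = 0.00114), Echs1 (-0.67, adjusted p = 0.00225) and Acad8 (-0.36, adjusted p = 0.0103, and 0.058 with the compared libraries alone), and in the propionate route Mmut, the mutase that follows the carboxylase (-1.01, adjusted p = 0.000676). Hibadh, the dehydrogenase after Hibch, was at 636, 509.8 and 519 TPM in WT cisplatin and 234, 261 and 285 in FAN1KO cisplatin kidneys, and Mmut at 106, 95.1 and 96.1 against 42.8, 46.1 and 58.4. Both sat below all other kidneys in the FAN1KO cisplatin group. Dld, the E3 subunit that BCKDH shares with other dehydrogenases, was at 243, 227 and 225 against 158, 158 and 174 TPM (-0.50, adjusted p = 0.00335).

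In the leucine arm Auh was called lower (-0.42, adjusted p = 0.0252), and in the isoleucine arm the thiolase Acat1 (-1.18, adjusted p = 0.0328), which was higher in the kidneys with Y-linked RNA. The cytosolic aminotransferase Bcat1 was at 12.4, 10.6 and 16.4 TPM in WT saline, 1.82, 2.09 and 0.0494 in FAN1KO saline, 7.84, 15.1 and 13.3 in WT cisplatin and 2.42, 2.46 and 6.85 in FAN1KO cisplatin kidneys. All 6 FAN1KO kidneys were below all 6 WT kidneys. Its log2 fold change was -2.74 under saline (adjusted p = 0.0215), the 1 call of the 22 in that comparison, and -1.49 under cisplatin (adjusted p = 0.0373). The saline call was lost without WT saline replicate 1 (adjusted p = 0.0902), 2 (0.0768) or 3 (0.0844), and the cisplatin call without WT saline replicate 1 (0.0521), WT cisplatin replicate 2 (0.0965) or 3 (0.0887) or FAN1KO cisplatin replicate 1 (0.141) or 2 (0.123); a pseudocount of 0.1 ended both (0.0857 and 0.174), as did voom on the recovered reads (0.103 and 0.0659) and a fit of the compared libraries alone (0.121 and 0.0503), and no filter on low values ended the cisplatin call (0.0546). Without FAN1KO cisplatin replicate 1 or 2, the calls of Auh (adjusted p = 0.0936 and 0.0513) and Acat1 (0.123 and 0.0982) were lost as well. Acat1 also lost its call without WT cisplatin replicate 1 (0.118) and with median-ratio scaling (0.0595), and Auh without WT cisplatin replicate 2 (0.0545) or 3 (0.0776) or FAN1KO cisplatin replicate 3 (0.0517), and with the compared libraries alone (0.0674).

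The gene called higher was Hlcs, the ligase that attaches biotin to the carboxylases, at 2.81, 4.43 and 4.31 TPM in WT cisplatin and 7.48, 7.82 and 6.56 in FAN1KO cisplatin kidneys (0.79, adjusted p = 0.0358). The call was lost without WT cisplatin replicate 1 (adjusted p = 0.129) or 3 (0.0538) or FAN1KO cisplatin replicate 1 (0.11) or 2 (0.108), and with no filter on low values (0.0561). Bckdk, the kinase that inactivates BCKDH, was at 51.4, 55.0 and 61.2 in WT cisplatin and 53.8, 56.3 and 55.8 TPM in FAN1KO cisplatin kidneys, with an estimate of -0.01 (95% confidence interval -0.24 to 0.22, adjusted p = 0.942) whose sign turned without WT cisplatin replicate 3 (0.054) or FAN1KO cisplatin replicate 1 (0.0069), and which was -0.30 with median-ratio scaling (adjusted p = 0.08). Ppm1k, the phosphatase that activates BCKDH, was at 9.35, 8.19 and 11.4 against 7.26, 6.78 and 7.36 TPM (-0.38, 95% confidence interval -0.87 to 0.11, adjusted p = 0.236), and was called lower with median-ratio scaling (-0.63, adjusted p = 0.0326).

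Cisplatin against saline in FAN1KO gave 12 of the 22 lower, against 4.90% of all genes, and 2 higher, against 34.9%, Hlcs (0.82, adjusted p = 0.0196) and Bckdk (0.30, adjusted p = 0.0414). The count of 2 was 0 without FAN1KO saline replicate 1 or FAN1KO cisplatin replicate 1 or 2, and 1 without WT saline replicate 2, FAN1KO saline replicate 3, WT cisplatin replicate 2 or FAN1KO cisplatin replicate 3. It was 1 with the compared libraries alone, with median-ratio scaling and without the mean-variance trend, and 3 with a Y-linked covariate. Those 4 fits called 4698, 2333, 5174 and 7919 of all genes higher, in that order, against 5229 in the main fit. In WT the counts of the 22 were 0 lower and 0 higher by limma and by voom, with 0 at an unadjusted p under 0.05. The interaction was called in 4 of the 22, all negative, against 1.02% of all genes called negative and 5.22% positive. The 4 were Aldh6a1 (-1.15, adjusted p = 0.0153), Mmut (-1.03, adjusted p = 0.0134), Hibadh (-0.98, adjusted p = 0.0131) and Dld (-0.67, adjusted p = 0.016). With median-ratio scaling 7 of the 22 were called, all negative, against 184 negative and 374 positive among all genes. With a Y-linked covariate 9 were called negative and 1 positive, in a fit that called 646 negative and 4088 positive among all genes.

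**Figure D4:**
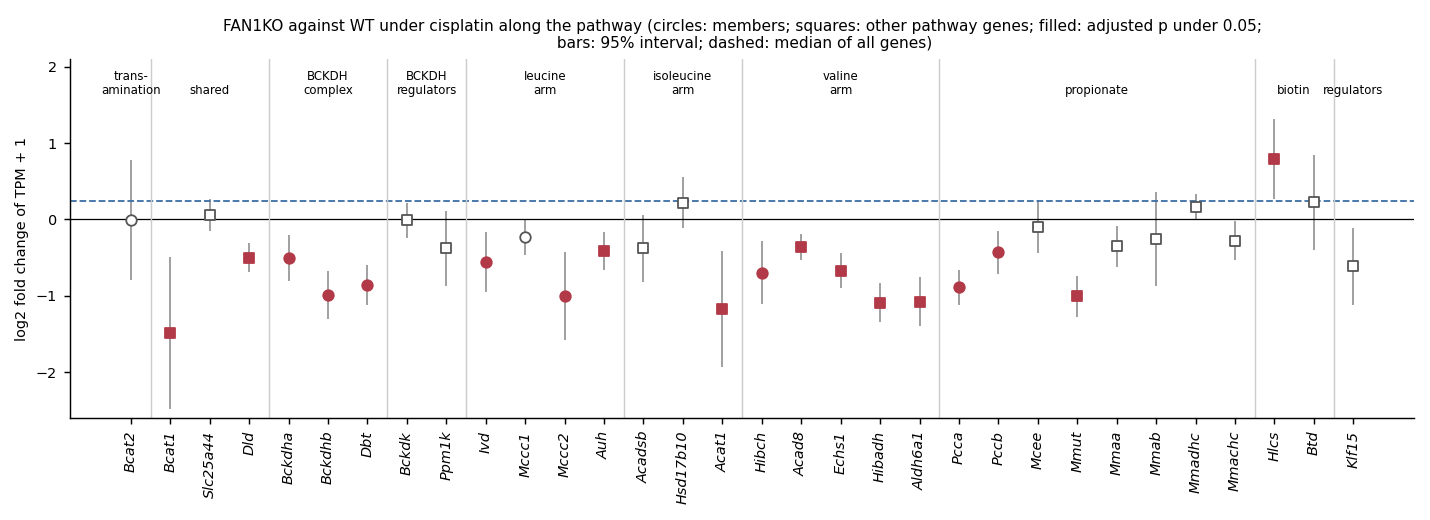
Log2 fold changes for FAN1KO against WT under cisplatin of the 10 genes and the 22 other pathway genes, ordered by step of the pathway, with 95% confidence intervals (circles, the 10; squares, the 22; filled, adjusted p under 0.05; dashed line, median of all genes). Of the 22, 9 were called lower and 1, Hlcs, higher.

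The 5 genes outside both lists whose centred log2(TPM + 1) profile over the 12 libraries was nearest to the median profile of the 10, by root mean square difference, were Acad12 (0.0848), Sod2 (0.0919), Etfa (0.0951), Gm5512 (0.0969) and Uqcrfs1 (0.0978). Their mean levels in WT cisplatin and FAN1KO cisplatin kidneys were 34.6 and 20.8 TPM for Acad12, an acyl-CoA dehydrogenase family gene, 159 and 100.4 for Sod2, the mitochondrial superoxide dismutase, and 529 and 332 for Uqcrfs1, a subunit of respiratory complex III. Among the 10 genes Dbt (0.105) and Pcca (0.117) were nearest to that profile, and Mccc1 (0.400) and Bcat2 (0.487) farthest.

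Marker genes of kidney cell types moved in the same comparisons. Of 12 proximal tubule genes, all measured and none at 0, 8 were called lower, against 4.37% of all genes, and 0 higher, against 19.6%, in FAN1KO against WT under cisplatin, with a median of -1.20 against 0.24 over all genes. Their summed level, with Miox the most abundant, was 11902, 11244 and 9148 TPM in WT saline, 11842, 11850 and 14596 in FAN1KO saline, 9253, 9571 and 10249 in WT cisplatin and 2936, 3511 and 5964 in FAN1KO cisplatin kidneys. As with the 10 pathway genes, the FAN1KO cisplatin kidneys were the lowest, and their median fold was larger than that of the 10. Cisplatin against saline in FAN1KO gave 9 of the 12 lower, against 4.90% of all genes (median -1.21 against 0.37). The saline comparison gave 0 and the WT comparison 0, with 1 and 0 at an unadjusted p under 0.05. The interaction was called negative in 2 of the 12, against 1.02% of all genes, with a median of -1.11 against 0.28. The genotype count of 8 was 3 without WT cisplatin replicate 2 or FAN1KO cisplatin replicate 1 or 2, and 4 without WT cisplatin replicate 1 or 3. The part of this difference in the levels of the 10 genes was not tested.

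**Figure D5:**
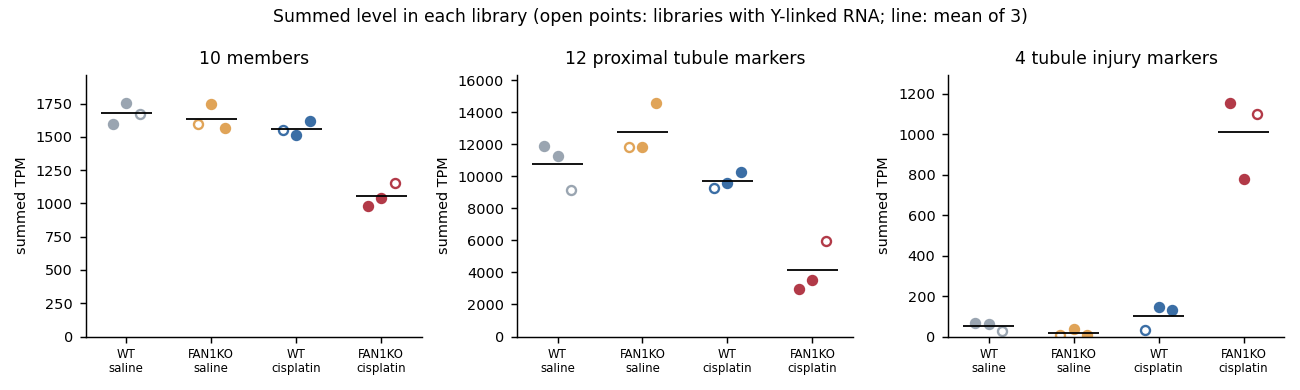
Summed TPM of the 10 pathway genes, the 12 proximal tubule markers and the 4 tubule injury markers in each of the 12 kidneys (open points, Y-linked RNA present; lines, group mean). The FAN1KO cisplatin kidneys have the lowest pathway sums, 984 to 1151, and the highest injury sums, 778 to 1155.

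The 4 tubule injury genes, with Havcr1 the most abundant, summed to 67.3, 59.8 and 25.0 TPM in WT saline, 9.32, 35.4 and 6.86 in FAN1KO saline, 32.8, 148 and 129 in WT cisplatin and 1155, 778 and 1101 in FAN1KO cisplatin kidneys. In FAN1KO against WT under cisplatin 4 of 4 were called higher, against 19.6% of all genes, with a median of 3.78; 2 were without WT cisplatin replicate 1 or FAN1KO cisplatin replicate 1 or 3. Erythroid genes, with Hba-a1 the most abundant, summed to 823, 1511 and 2155 TPM in WT cisplatin and 3.16, 3.31 and 24.1 in FAN1KO cisplatin kidneys, and 161 to 1898 under saline, and 3 of 3 were called lower, against 4.37% of all genes. The 6 immune genes, with Lyz2 the most abundant, summed to 36.2, 159 and 123 against 342, 165 and 137 TPM, with a median of 0.43. In cisplatin against saline within FAN1KO, 4 of 4 injury genes (median 6.04) and 2 of 6 immune genes (median 0.61) were called higher. Of all genes 34.9% were. The 3 erythroid genes were called lower there (median -5.28), against 4.90% of all genes. The part of each of these in the levels of the 10 genes was not tested.

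The remaining kidney marker lists overlapped between genotypes under cisplatin in their sums, except for the collecting duct. Collecting duct genes, with Aqp2 the most abundant of 5, summed to 384, 774 and 729.6 TPM in WT cisplatin and 1016, 1306 and 1619 in FAN1KO cisplatin kidneys, with a median log2 fold change of 0.51 against 0.24 over all genes. Aqp2 (1.39, adjusted p = 0.0455) and Aqp3 (0.51, adjusted p = 0.0325) were called higher, as were 19.6% of all genes. With 1 library left out, both calls held only without FAN1KO saline replicate 1 or 2, and 0 were left without WT cisplatin replicate 1 or FAN1KO cisplatin replicate 2 or 3. Median-ratio scaling also left 0. Thick ascending limb genes, led by Umod, summed to 1096, 2479 and 2567 against 1719, 1917 and 1548 (median -0.01), and distal convoluted tubule genes, led by Slc12a3, to 390.4, 609 and 728 against 475, 629 and 254 (median -0.50). Among the latter Pvalb was called lower (-4.63, adjusted p = 0.00119), at 187, 303 and 358 TPM in WT cisplatin against 4.55, 12.9 and 16.6 in FAN1KO cisplatin kidneys, and 1 of the 3 genes was called lower without any 1 library. Podocyte genes, led by Podxl, summed to 34.4, 105 and 80.4 against 131, 46.3 and 21.3 (median -0.22). Endothelial genes, led by Emcn, summed to 35.9, 152 and 91.4 against 67.2, 40.5 and 19.2 (median -0.97). Fibroblast genes, led by Dcn, summed to 35.8, 167 and 85.6 against 118, 68.5 and 48.4 (median -0.17). In the podocyte, endothelial and fibroblast lists 0 genes were called, against 4.37% of all genes lower and 19.6% higher. All 4 endothelial estimates were below 0, and their median was lower than the -0.63 of the 10 pathway genes. The part of each of these marker lists in the levels of the 10 genes was not tested.

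Fat and muscle, tissues that also break down branched-chain amino acids, were checked by their markers. Adipocyte genes, with Adipoq the most abundant, summed to 4.06, 58.8 and 5.64 TPM in WT saline, 0.444, 0.412 and 0.094 in FAN1KO saline, 34.7, 13.8 and 1.02 in WT cisplatin and 2.31, 2.26 and 6.5 in FAN1KO cisplatin kidneys. The WT saline kidneys were above the FAN1KO saline kidneys, and the cisplatin groups overlapped. Of the 4 genes 3 passed the filter and 0 were called by limma in any comparison, with 2 at an unadjusted p under 0.05 under saline and 0 elsewhere, and Adipoq was at 0 in 4 libraries. Skeletal muscle genes summed to 2.99 TPM or less in every library, with Acta1 the most abundant and Ckm at 0 in 7 libraries. Their sums under cisplatin were 0.930, 0.506 and 0.623 in WT and 2.85, 2.99 and 1.26 in FAN1KO kidneys, without overlap. Acta1, the 1 gene of 3 that passed the filter, was called higher in FAN1KO against WT under cisplatin (0.96, adjusted p = 0.0118), as were 19.6% of all genes. It was also called higher in cisplatin against saline within FAN1KO (1.26, adjusted p = 0.00182), as were 34.9% of all genes. The first of these calls was lost without FAN1KO cisplatin replicate 1 or 2.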

How the data were processed

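RNA of 12 mouse kidneys was sequenced, 3 per group. The authors deposited 1 table of TPM per gene and library on mouse build mm10, and the program that made it was not given in the sources used here. Gene numbers were named with RefSeq GRCm38.p6 (25275 of 27179), and 0 columns were left out. Genes at 1 TPM or more in at least 3 libraries were kept, and log2(TPM + 1) was fitted by limma 3.58.1 in R 4.3.3 with 4 group means over all 12 libraries, a mean-variance trend and Benjamini-Hochberg adjustment over 14972 genes at 0.05, two-sided. Fold changes on this scale understate the change of low genes. Subunit ratios were compared by exact permutation.

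Whole reads were recovered from the steps of the TPM values, within 0.02 reads, for 232967 of 232991 values above 0 in the table. The alternatives were a pseudocount of 0.1, no filter, the libraries of a comparison alone, median-ratio scaling, the replicate number as a block, a Y-linked covariate, no trend, voom on recovered reads and leaving out each library. Other pathway genes were named where called under cisplatin or in the interaction, or where they regulate BCKDH. In the lists, 2 genes are not reported here. The members and lists were chosen with earlier results of these data known. The steps were tested on simulated data, and figures and promoter searches used Python 3.11.15 and matplotlib 3.10.9.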

Additional observations from a re-analysis of the deposited data

Results flagged for a closer look

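The genotypes differed in their response to cisplatin, by the interaction term of limma, in 7 of the 32 pathway genes, all negative, against 1.02% of all genes called negative and 5.22% positive. The cisplatin effect in FAN1KO minus that in WT was -0.71 for Dbt, -1.14 for Mccc1, -0.98 for Pcca, -0.67 for Dld, -0.98 for Hibadh, -1.15 for Aldh6a1 and -1.03 for Mmut on the log2 scale. The Dbt call was lost in 10 of 12 fits with 1 library left out. Under saline, Mccc1 was called higher in FAN1KO and the other 6 were not called, which does not show that their levels did not differ. The 7 genes were singled out for this term in the fit over all genes, and the cause of the difference was not tested.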

How the results depend on the processing

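Of the calls for FAN1KO against WT under cisplatin, Bckdhb, Dbt and Pcca held under every alternative run. The number of the 10 genes called in that comparison was 8, and 5 with its 6 libraries alone, and between 3 and 8 when 1 library was left out. The cause of these differences was not tested, though leaving libraries out leaves fewer samples. Under saline, 1 of the 10 was called lower and 1 higher with a Y-linked covariate, and 248 lower and 173 higher among all genes. The interaction was called in 6 with that covariate and in 5 without the 4 libraries with Y-linked RNA, which was chosen after seeing the data. Median-ratio scaling gave medians of -0.91, -1.12 and -0.90 for FAN1KO against WT under cisplatin, cisplatin against saline in FAN1KO and the interaction. The sign of the Bcat2 estimate under cisplatin turned with the Y-linked covariate (0.015), and with 1 library left out it ran from -0.31 to 0.21, and that of Bckdk from -0.069 to 0.054.

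Same-numbered libraries are different mice, and whether they share more than the number was not given in the sources used here. In each pairwise comparison the libraries with Y-linked RNA carried different replicate numbers. The part of this layout in the correlations below was not tested. The mean correlation of library residuals, over all genes, was -0.243 for same-numbered libraries under cisplatin and 0.133 for others, -0.208 and 0.139 under saline, -0.144 and 0.0806 within FAN1KO and -0.184 and 0.138 within WT. With a block for that number, 7, 1, 8, 0 and 2 of the 10 genes were called in the 5 comparisons, in the order under cisplatin, under saline, within FAN1KO, within WT and interaction, and over all genes 580 lower and 2376 higher, 29 and 32, 672 and 4798, 0 and 0, and 73 and 351. Ivd lost its call under cisplatin (adjusted p = 0.0733), Dbt its interaction call (0.0733), Bcat1 lost both of its calls (0.0634 under cisplatin, 0.0656 under saline), and Pccb gained one within FAN1KO (0.0282). Of the other pathway genes, 1 was called higher within FAN1KO with the block and 2 without it.

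Each group had 3 mice, so the exact test of a ratio could not go below p = 0.1. The effect of depth on the calls was not tested. Gene totals do not separate isoforms or overlapping genes.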
